A study of Danio rerio with 12 samples.

Results

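The genes described here are 8 enzymes of cholesterol synthesis (hmgcs1, idi1, fdps, fdft1, lss, cyp51, msmo1 and dhcr7) and the low-density lipoprotein receptor ldlra, which brings cholesterol into the cell from outside. They were picked by symbol from the table of counts, all 12 libraries included. The rule used symbols only, but it was set with earlier results of these data known. The 9 symbols met 9 gene IDs of the 35117 in the table. The member cyp51 was found under its human-style name CYP51A1. All 9 IDs had enough counts to be tested.

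The libraries were made from GFP-positive cells sorted from pools of whole zebrafish embryos that carry an mpeg-GFP transgene, in which the promoter of the macrophage gene mpeg1 drives GFP. Controls were wild-type for csf1r and carried transgenic reporters only, and csf1rDM embryos were homozygous for the alleles csf1ra j4e1 and csf1rb re01, which disable both zebrafish copies of the colony-stimulating factor 1 receptor. Each genotype was sampled at 28 and at 50 hours post fertilization (hpf), with 3 libraries in each of the 4 groups. A pool held 35 embryos, or 70 in csf1rDM at 50 hpf, so a library is a mean over many embryos. Nothing in the labels says that mutants and controls were siblings. Both genotypes share the mpeg-GFP reporter and the sort, and in both GFP marks the cells in which that promoter is active.

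Total counts ran from 8641139 to 20261650 per library, so 1 count was worth 0.0478 to 0.121 counts per 1000000 reads (CPM, scaled with TMM factors, which correct for differences in library composition). The 18 macrophage marker IDs summed to 22075 to 23026 CPM in the controls and 26453 to 27517 CPM in csf1rDM at 28 hpf, and to 16954 to 18936 and 21190 to 24785 CPM at 50 hpf, and csf1ra was read in every library, at 214 to 445 CPM. Not every macrophage ID was higher in csf1rDM. At 28 hpf the means of marco (128 against 219 CPM) and of the mfap4 ID ENSDARG00000090783 (2625 against 3072 CPM) were lower there. At 50 hpf the means of that mfap4 ID (980 against 1315 CPM), another mfap4 ID, csf1ra and lcp1 were lower. Some lists of other cells also separated the genotypes. The 12 muscle IDs summed to 12.4 to 19.1 CPM in the controls at 28 hpf and to 110 to 3141 CPM in csf1rDM, while at 50 hpf they ranged from 9.9 to 4077 CPM in the controls and from 12.7 to 4674 CPM in csf1rDM. At 50 hpf, csf1rDM libraries were higher in the 5 neutrophil IDs (1371 to 1639 CPM against 935 to 1189 CPM), the 6 endothelial IDs (83.8 to 93.1 against 61.7 to 81.9 CPM, with plvapa at 0 in csf1rDM) and the 9 yolk and liver IDs (4.9 to 17.4 against 1.6 to 2.5 CPM), and lower in the 7 pigment cell IDs (7.3 to 17.7 against 33.4 to 79.4 CPM). The part of these cells in the genotype differences was not tested. Replicate 1 of csf1rDM at 28 hpf, the shallowest library, held the highest sums of the 9 keratinocyte IDs (469 CPM) and the 7 pigment cell IDs (449 CPM) of all 12.

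Animal cells build cholesterol from acetyl-CoA. The early steps make mevalonate and small isoprenoid units, which also feed protein prenylation and other products. The squalene steps then commit the chain to sterols, and the late steps trim and rearrange the first sterol ring into cholesterol. In mammals the genes of this pathway and the LDL receptor are switched together by the transcription factor SREBP2 (srebf2), which its escort SCAP carries out of the endoplasmic reticulum when sterols are low and which INSIG proteins hold back when sterols are plentiful. Macrophages also gain cholesterol by engulfing dead cells, so in these cells synthesis, uptake and export are set against each other.

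The first question was whether macrophages without Csf1r differed from control macrophages in these genes, at either stage. The members did not move as a block. Lanosterol demethylase cyp51 was almost absent from csf1rDM cells at 50 hpf, the mid-pathway synthase fdps was slightly lower in csf1rDM cells at both stages, and hmgcs1, at the entry to the mevalonate route, lay close to control levels at 50 hpf. A gene passed when its adjusted p was below 0.01 and its log2 fold change lay beyond 1 in either direction (edgeR quasi-likelihood test, Benjamini-Hochberg adjustment over 16429 genes). Of the 9 members 0 passed at 28 hpf and 1 passed at 50 hpf, where 4.08% and 5.33% of all genes did. With no limit on the fold and an adjusted p below 0.05, the counts were 1 and 2 members, against 20.5% and 19.9% of all genes. At 28 hpf, 2 members had an unadjusted p below 0.05. DESeq2, the other tool run, also passed 0, and no share of all genes was taken for its calls here or below. A gene with an adjusted p below 0.05 also has an unadjusted p below 0.05, so at least 20.5% of all genes did so. The share of all genes at an unadjusted p below 0.05 was not computed, here or below. Shares given with "at least" are those at an adjusted p below 0.05, and the true share may lie well above them. These are bulk libraries, so fewer cells of a type and less RNA per cell cannot be told apart.

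**Figure D1:**
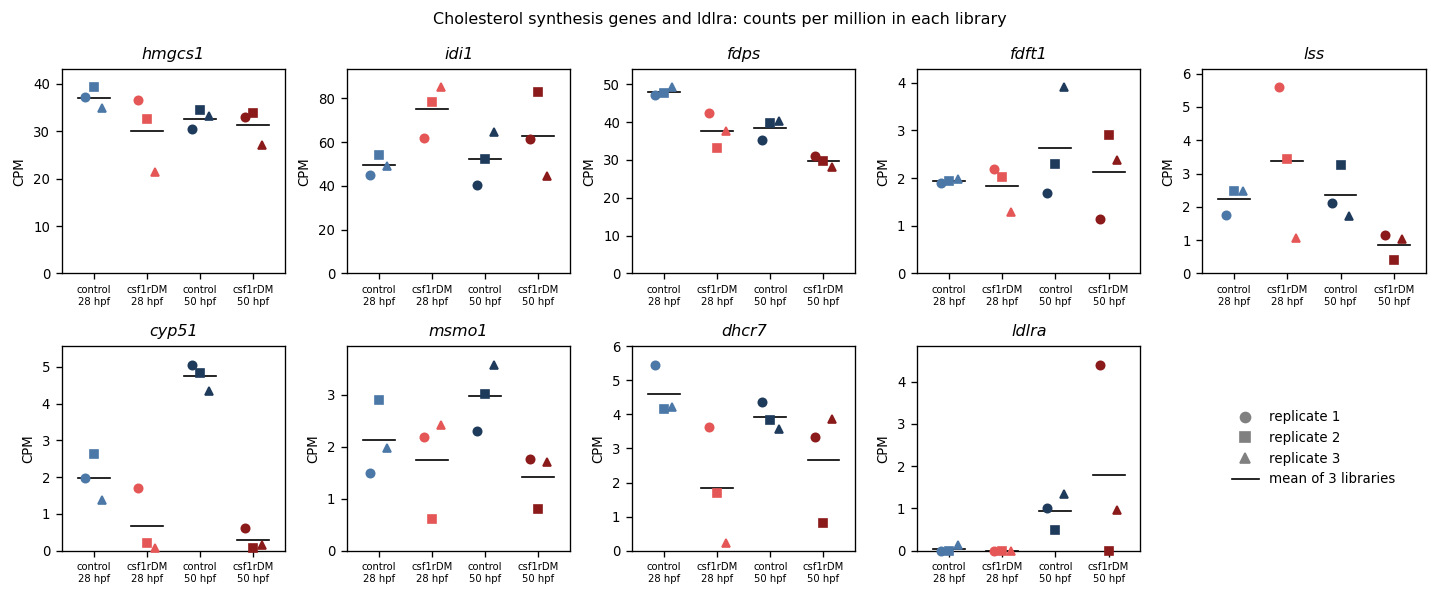
CPM (linear axes from 0) of the 9 member IDs in each of the 12 libraries. Each point is 1 library, its shape gives the replicate number and the black line is the mean of 3 libraries. The 3 csf1rDM libraries of 50 hpf lie at or below 0.617 CPM of cyp51 and the 3 controls of that stage at or above 4.35 CPM.

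The depth split the members into 2 kinds. In every library 3 IDs lay above 20 CPM (hmgcs1, idi1 and fdps), and in every library the other 6 lay below 6 CPM, with 0 to 101 counts. The first 3 act before squalene, and all members from squalene onwards belong to the thinly counted 6. Transcript lengths were not used here, so these figures say how well each gene was counted and not which transcript is more abundant in the cell. The precision follows this split. The standard error of the genotype effect at 50 hpf was 0.11 to 0.22 on the log2 scale for the well-counted 3 and 0.47 to 1.31 for the other 6.

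The first member in the pathway, hmgcs1, condenses acetyl-CoA units on the way to mevalonate. It stood at 37.1, 39.2 and 34.9 CPM in the controls at 28 hpf and at 36.5, 32.6 and 21.3 CPM in csf1rDM. The groups overlapped, with replicate 3 of csf1rDM the lowest of all 12 libraries. At 50 hpf the controls had 30.4, 34.4 and 33.1 CPM and csf1rDM had 33.0, 33.9 and 27.2 CPM. The fitted log2 difference at 50 hpf was -0.06 (95% interval -0.43 to 0.31) and did not pass.

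The isomerase idi1 interconverts the 2 isoprenoid building blocks. It was the only member with higher csf1rDM values in every library at 1 stage. The controls at 28 hpf had 44.8, 54.0 and 49.2 CPM and the csf1rDM libraries had 61.8, 78.1 and 85.0 CPM, with no overlap. At 50 hpf the controls ranged from 40.2 to 64.5 CPM and csf1rDM from 44.5 to 83.0 CPM, and the groups overlapped. The log2 differences of 0.61 ± 0.22 (SE) at 28 hpf and 0.27 ± 0.22 at 50 hpf had adjusted p-values of 0.069 and 0.45, so neither passed. Averaged over the stages the difference was 0.44 (95% interval 0.10 to 0.77, adjusted p = 0.045), and it stayed below 0.05 under 9 of 18 alternative settings.

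Farnesyl diphosphate synthase, fdps, joins those blocks into the chain from which both sterols and prenyl groups are made. It stood at 47.3, 47.6 and 49.1 CPM in the controls at 28 hpf and at 42.4, 33.1 and 37.7 CPM in csf1rDM. At 50 hpf it stood at 35.2, 39.8 and 40.3 CPM in the controls and at 31.1, 29.7 and 28.2 CPM in csf1rDM. All 3 mutant libraries lay below all 3 controls at each stage, and within each genotype all 3 libraries of 50 hpf lay below those of 28 hpf. The genotype differences were small, -0.35 ± 0.11 (SE, adjusted p = 0.041) at 28 hpf and -0.38 ± 0.11 (adjusted p = 0.031) at 50 hpf, and they differed from each other by -0.02 (95% interval -0.36 to 0.31). Averaged over the stages fdps was 1.29-fold lower in csf1rDM (log2 difference -0.36 ± 0.08, adjusted p = 0.0033), below 0.05 in 18 of 18 alternatives, while the values of single stages stayed below 0.05 in 7 and 10 of 19. The fold lies far under the limit of 2-fold, so fdps did not pass.

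Squalene synthase, fdft1, makes the first committed sterol intermediate. It had 24, 28 and 32 counts in the controls at 28 hpf, 18, 30 and 18 in csf1rDM, 27, 48 and 61 in the controls at 50 hpf and 13, 36 and 32 in csf1rDM. The groups overlapped at both stages. Its log2 differences of -0.09 and -0.29 had 95% intervals from -1.12 to 0.95 and from -1.31 to 0.73. No difference was shown, and these libraries do not exclude a difference within those limits.

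Lanosterol synthase, lss, closes the first sterol ring system. The controls at 28 hpf had 1.74, 2.49 and 2.48 CPM and the csf1rDM libraries of that stage 5.59, 3.44 and 1.07 CPM. These csf1rDM values were spread more widely than any other group of this gene, and replicate 1 was the highest of all 12 libraries. At 50 hpf the controls had 2.13, 3.25 and 1.73 CPM and csf1rDM had 1.15, 0.402 and 1.04 CPM, with no overlap. The difference at 50 hpf was -1.45 ± 0.61 (SE, adjusted p = 0.12) and did not pass.

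The demethylase cyp51 takes a methyl group off lanosterol and opens the late part of the pathway. At 50 hpf it had 81, 101 and 68 counts (5.06, 4.83 and 4.35 CPM) in the controls and 7, 1 and 2 counts (0.617, 0.0804 and 0.148 CPM) in csf1rDM. The groups lay far apart, with 10 mutant counts in all against 250 in the controls. The fitted level was 16.7-fold lower in csf1rDM (log2 difference -4.06 ± 0.96, 95% interval -6.16 to -1.97, adjusted p = 0.00996), and cyp51 was the 1 member that passed. At 28 hpf the controls had 25, 38 and 22 counts (1.98, 2.63 and 1.36 CPM) and csf1rDM had 14, 3 and 1 (1.70, 0.203 and 0.0713 CPM). Here the groups overlapped through replicate 1 of csf1rDM, and the difference of -1.71 ± 0.89 had an adjusted p of 0.20.

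The adjusted p of cyp51 at 50 hpf lay just under the threshold. It rose above 0.01 under both other scalings (0.0113 and 0.0118), when any 1 control of either stage was left out (0.0145 to 0.0304), and when replicate 2 or 3 of csf1rDM at 50 hpf was left out (0.0328 and 0.0381). In all 18 alternatives it stayed below 0.05, with log2 differences from -5.27 to -3.63. At 28 hpf the difference became -3.84 with an adjusted p of 0.0082 when replicate 1 of csf1rDM was left out. That library also held 469 CPM of the keratinocyte list and 449 CPM of the pigment list, against 41.6 and 42.4 CPM and against 10.7 and 8.0 CPM in the other 2 libraries of its group. All 9 keratinocyte and all 7 pigment IDs had counts in the series, and in this group krt5 alone was at 0. The controls at 28 hpf ranged from 22.0 to 308 CPM and from 5.9 to 163 CPM, the controls at 50 hpf from 15.7 to 99.1 and from 33.4 to 79.4 CPM, with tyr at 0, and csf1rDM at 50 hpf from 14.5 to 159 and from 7.3 to 17.7 CPM. The 12 muscle IDs were ordered the other way in csf1rDM at 28 hpf. They summed to 110 CPM in replicate 1, 799 CPM in replicate 2 and 3141 CPM in replicate 3. The part of these cells in the level of cyp51 was not tested. Averaged over both stages cyp51 was 7.39-fold lower in csf1rDM (log2 difference -2.89 ± 0.65, adjusted p = 0.0045). This average lost its call without replicate 2 of the controls or of csf1rDM at 28 hpf, without any 1 control of 50 hpf or without replicate 3 of csf1rDM at 50 hpf, with adjusted p-values from 0.0102 to 0.0134.

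The methyl sterol monooxygenase msmo1 acts soon after cyp51 and dhcr7 makes the last reduction to cholesterol. At 50 hpf msmo1 stood at 2.31, 3.01 and 3.58 CPM in the controls and at 1.76, 0.804 and 1.70 CPM in csf1rDM, with no overlap and a log2 difference of -1.06 ± 0.55 (adjusted p = 0.21). At 28 hpf its groups overlapped, with 1.5 to 2.90 CPM in the controls and 0.608 to 2.42 CPM in csf1rDM. For dhcr7 the order of the stages was the opposite, with the separated groups at 28 hpf. The controls of that stage had 5.46, 4.15 and 4.22 CPM and csf1rDM had 3.64, 1.69 and 0.214 CPM (log2 difference -1.36 ± 0.72, adjusted p = 0.21), while at 50 hpf the controls had 4.38, 3.83 and 3.58 CPM and csf1rDM had 3.35, 0.804 and 3.85 CPM. The mutant libraries of dhcr7 were thus spread over 3 to 30 counts at 28 hpf and 10 to 52 at 50 hpf, and the controls over 60 to 69 and 56 to 80.

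The receptor ldlra was not read at 28 hpf beyond 2 counts in 1 control library. At 50 hpf the controls had 16, 10 and 21 counts (1.0, 0.478 and 1.34 CPM) and csf1rDM had 50, 0 and 13 (4.41, 0 and 0.963 CPM). The mutant libraries enclosed the controls, and the genotype difference of 0.92 had a 95% interval from -1.97 to 3.81. It became -0.94 without replicate 1 of csf1rDM, the library with 50 counts.

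Taking the 9 members as a list, the median log2 difference between genotypes was -0.30 at 28 hpf and -0.38 at 50 hpf, beside 0.02 and -0.02 over all tested genes, and 7 of the 9 were negative at each stage. At 28 hpf 1 of these was ldlra, which had 2 counts in the controls and 0 in csf1rDM, so its sign carries no weight. With ldlra left out at both stages, the medians were -0.30 and -0.47. Its csf1rDM libraries held 0 counts at 28 hpf but 63 in all at 50 hpf, where its difference was positive. The 3 members whose groups did not overlap at 28 hpf were idi1, higher, and fdps and dhcr7, lower. At 50 hpf the 4 were fdps, lss, cyp51 and msmo1, all lower. Groups did not overlap for 41.0% and 35.9% of all tested genes, so 3 and 4 of 9 members were near the background. Averaged over both stages the median was -0.44, or -0.40 with ldlra left out, beside 0.00 over all genes. In this average 1 member passed (6.49% of all genes), and 3 had an adjusted p below 0.05 (33.5% of all genes), namely idi1, fdps and cyp51.

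**Figure D2:**
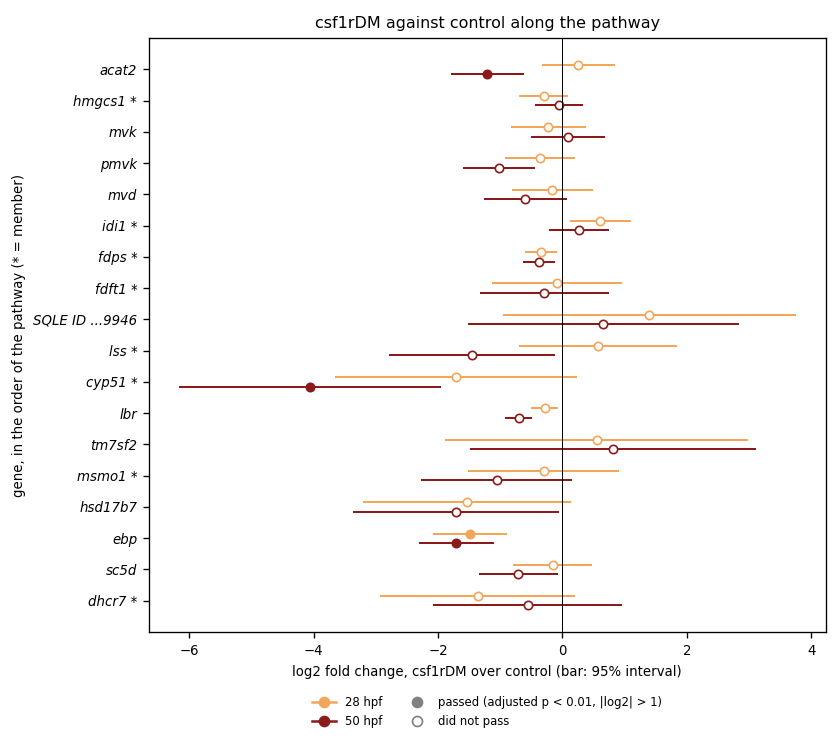
Log2 fold change of csf1rDM over control at 28 hpf (orange) and 50 hpf (dark red) for the tested synthesis genes in the order of the pathway, with 95% intervals. Filled points passed, members carry an asterisk, and ldlra (a group at 0 counts) and ggps1 (on a side branch) are left out. The filled points are acat2, cyp51 and ebp at 50 hpf and ebp at 28 hpf, and the widest intervals are those of the sqle ID, tm7sf2 and cyp51.

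The other enzymes of the route were read from a separate list of 13 IDs, of which 11 were tested (nsdhl and 1 of the 2 sqle IDs had too few counts). Of the 11, 1 fell and 0 rose at 28 hpf, and 2 fell and 0 rose at 50 hpf. Over all genes 4.08% and 5.33% passed in either direction at these stages. The sterol isomerase ebp fell at both. It had 15.0, 13.2 and 14.6 CPM in the controls at 28 hpf and 6.68, 5.13 and 3.64 CPM in csf1rDM (log2 difference -1.48 ± 0.26, adjusted p = 0.0019). At 50 hpf it had 8.31, 13.4 and 9.66 CPM in the controls and 3.08, 2.65 and 3.85 CPM in csf1rDM (-1.71 ± 0.27, adjusted p = 0.00074). The 6 mutant libraries all lay under the 6 controls. The call at 50 hpf held in 19 of 19 alternatives and that at 28 hpf in 18, with an adjusted p of 0.010 (log2 difference -1.47) without replicate 3 of the controls at 28 hpf.

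The second to fall at 50 hpf was acat2, the acetoacetyl-CoA thiolase that feeds hmgcs1. It stood at 12.6, 16.9 and 14.2 CPM in the controls and at 8.20, 3.94 and 6.82 CPM in csf1rDM (log2 difference -1.21 ± 0.26, adjusted p = 0.0058). Leaving out replicate 2 or 3 of either group of that stage took the adjusted p to 0.013 to 0.0264, with log2 differences from -1.28 to -0.95, and a fit of only the groups compared took it to 0.0312. At 28 hpf the groups overlapped, at 5.34 to 7.84 CPM in the controls and 7.41 to 8.58 CPM in csf1rDM. Phosphomevalonate kinase pmvk lay just short of the threshold at 50 hpf. It had 19.6, 20.3 and 23.0 CPM in the controls and 9.78, 6.59 and 14.5 CPM in csf1rDM (-1.02 ± 0.26, adjusted p = 0.015). It passed with no filter on low counts (adjusted p = 0.0043) and with at least 10 counts in every library (0.0075). The lamin B receptor lbr, which is a sterol reductase as well as an anchor of chromatin at the nuclear envelope, was 1.22-fold lower at 28 hpf (adjusted p = 0.047) and 1.63-fold lower at 50 hpf (239, 240 and 235 CPM in the controls, 129, 165 and 143 CPM in csf1rDM, adjusted p = 0.00023).

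The remaining 7 tested enzymes (mvk, mvd, ggps1, 1 sqle ID, tm7sf2, hsd17b7 and sc5d) had adjusted p-values above 0.05 at both stages. The ketosteroid reductase hsd17b7 had log2 differences of -1.53 ± 0.76 and -1.71 ± 0.76 on 1 to 56 counts, and its average of -1.62 ± 0.54 had an adjusted p of 0.034. The median over the 11 was -0.23 at 28 hpf and -0.71 at 50 hpf. The enzymes that passed at 50 hpf thus lay at the start (acat2), in the middle (cyp51) and near the end (ebp) of the route. Lower values that did not pass included those of pmvk, lbr and hsd17b7. At each stage 3 of the 11 were higher in csf1rDM, and none of these passed. On few counts, the means of the sqle ID were higher there at 28 hpf (0.559 against 0.198 CPM) and at 50 hpf (0.911 against 0.574 CPM). So were those of tm7sf2 (0.576 against 0.369 CPM and 1.17 against 0.659 CPM). The intervals of hmgcs1 and mvk at 50 hpf, picked after their values were seen, lay within -0.49 and 0.67.

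**Figure D3:**
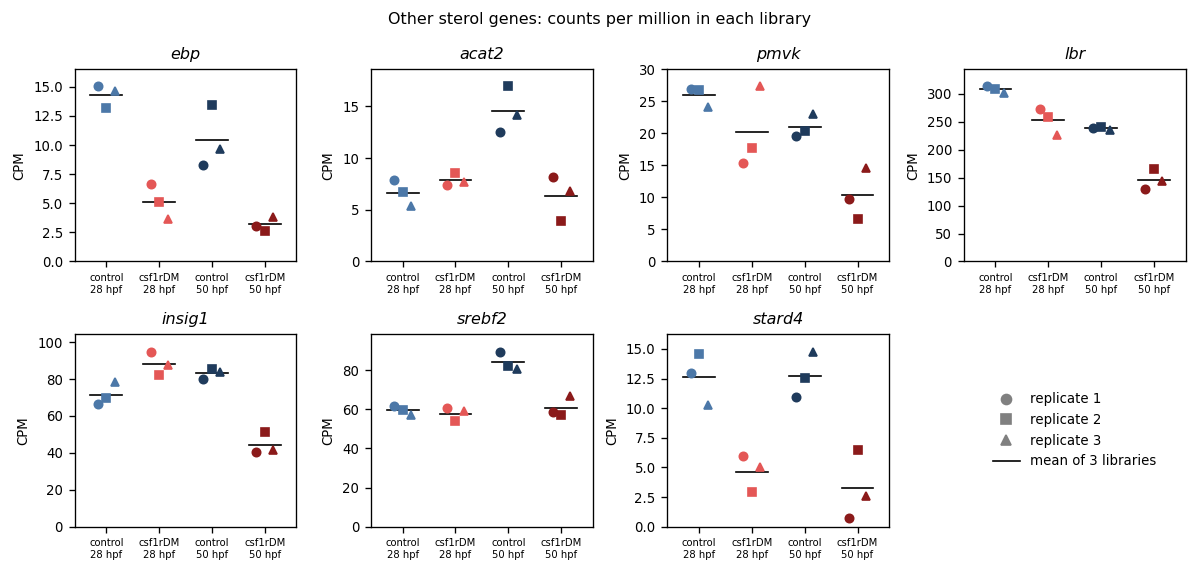
CPM (linear axes from 0) in each library for 4 other enzymes of the route (ebp, acat2, pmvk and lbr), 2 regulators (insig1 and srebf2) and the sterol carrier stard4. Points are libraries, shapes are replicate numbers and black lines are means of 3. The 3 csf1rDM libraries of 50 hpf lie between 40.5 and 51.3 CPM of insig1, below the other 9 libraries, which lie between 66.3 and 95 CPM.

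Genes of DNA replication were also lower in csf1rDM. The 8 IDs of mcm2 to mcm7 and pcna summed to 3430 to 3702 CPM in the controls and 1620 to 2027 CPM in csf1rDM at 28 hpf, and to 1687 to 2226 CPM and 608 to 703 CPM at 50 hpf. All 8 had counts in the series, and 1 of the 2 mcm6 IDs was at 0 in the controls at 50 hpf. The 7 IDs tested all lay lower in csf1rDM at both stages, with log2 differences from -1.14 to -0.64 at 28 hpf (2 passed) and from -1.76 to -1.43 at 50 hpf (7 passed). Over all genes 4.08% passed at 28 hpf and 5.33% at 50 hpf. Whether the sterol genes moved with the cell cycle was not tested.

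The second question was how the genes changed between 28 and 50 hpf in each genotype. Of the 9 members 0 passed in the controls and 0 in csf1rDM, where 6.29% and 8.24% of all genes did. At an adjusted p below 0.05 there were 0 members in the controls (23.4% of all genes) and 3 in csf1rDM (27.6%), of which fdps and lss were lower and ldlra higher at 50 hpf. At an unadjusted p below 0.05 there were 2 members in the controls and 3 in csf1rDM, beside at least 23.4% and 27.6% of all genes. DESeq2 passed 0 and 1, with no share of all genes to set beside them. Groups of the 2 stages did not overlap for 4 members in the controls (cyp51 and ldlra higher, hmgcs1 and fdps lower) and for 1 in csf1rDM (fdps, lower), beside 49.3% and 36.8% of all genes.

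The well-counted early enzymes moved little between the stages. The log2 differences of hmgcs1 were -0.18 (95% interval -0.55 to 0.19) in the controls and 0.06 (-0.31 to 0.44) in csf1rDM, and those of idi1 were 0.08 (-0.39 to 0.56) and -0.25 (-0.73 to 0.22). For fdps the differences of -0.32 ± 0.11 in the controls (adjusted p = 0.052) and -0.35 ± 0.11 in csf1rDM (adjusted p = 0.036) were much alike.

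The order of the 4 group means differed from member to member. For fdps it ran from the controls at 28 hpf through the controls at 50 hpf and csf1rDM at 28 hpf, which overlapped, to csf1rDM at 50 hpf, which lay below the rest. For hmgcs1 the controls at 28 hpf came first, at 34.87 CPM or more, just above the controls at 50 hpf, at 34.44 CPM or less. They overlapped csf1rDM at 28 hpf, which reached 36.5 CPM, and neighbours among the other groups overlapped. For cyp51 the controls at 50 hpf came first, clear of the controls at 28 hpf, and the 2 mutant groups came last and overlapped each other. For lss the mutant group of 28 hpf had the highest mean and that of 50 hpf the lowest, and only the latter stood clear of its neighbour. For idi1, fdft1, msmo1 and dhcr7 every pair of neighbours in the order overlapped.

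The control value of cyp51 was 2.38-fold higher at 50 hpf than at 28 hpf, with all 3 later libraries above all 3 earlier ones, but the interval of the log2 difference reached from -0.52 to 3.02 (adjusted p = 0.31). In a fit of the 6 control libraries alone the same difference of 1.26 had an adjusted p of 0.0081. In csf1rDM the difference was -1.10 (95% interval -3.24 to 1.04), and it was 0.95 without replicate 1 of 28 hpf. For lss the csf1rDM libraries went from 46, 51 and 15 counts to 13, 5 and 14 counts, a log2 difference of -1.94 ± 0.61 (adjusted p = 0.032), which became -1.40 (adjusted p = 0.13) without replicate 1 of csf1rDM at 28 hpf and -2.38 (adjusted p = 0.0062) without replicate 3.

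In the controls ldlra went from 2 counts in all to 47, a ratio of 19.3 per count sequenced (95% interval 5.06 to 164 by the exact binomial method, for counting error only). The edgeR test, which takes in the spread between libraries, gave no adjusted p below 0.05 for this rise. In csf1rDM ldlra went from 0 counts to a mean of 1.79 CPM, at least 6.88-fold higher than the limit of 3 counts per library, but replicate 2 of 50 hpf held 0 counts and replicate 1 held 50 of the 63. At 28 hpf the 9 yolk and liver IDs summed to 56.7 to 61.5 CPM in the controls and 60.1 to 115 CPM in csf1rDM. At 50 hpf the sums were 1.6 to 2.5 and 4.9 to 17.4 CPM, the highest in replicate 1 of csf1rDM. Most of the sum at 28 hpf was transferrin (tfa), whose mean in csf1rDM went from 86.8 to 5.24 CPM. The means of the other IDs rose in csf1rDM, such as apoa1b from 0.256 to 2.0 CPM, apoa2 from 0.135 to 1.46 CPM and apoba from 0 to 1.01 CPM. In the controls none of these means rose. The liver marker fabp10a was at 0 in 3 of the 4 groups, with apoba, apobb.1, apoa4b.1 and serpina1 at 0 in csf1rDM at 28 hpf. The part of such RNA in these results was not tested.

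**Figure D4:**
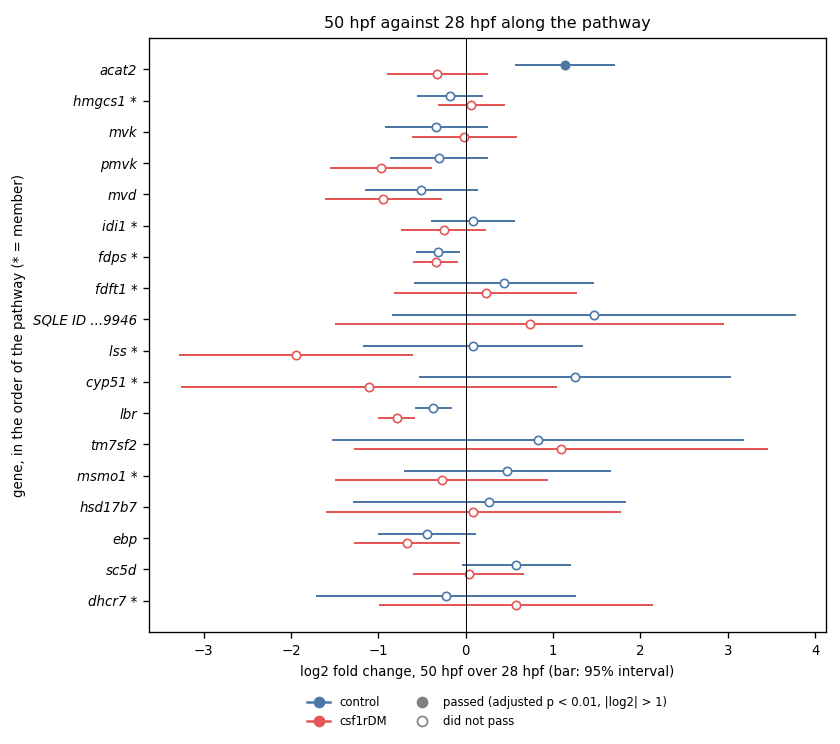
Log2 fold change of 50 hpf over 28 hpf in control (blue) and csf1rDM (red) for the tested synthesis genes in the order of the pathway, with 95% intervals. Filled points passed and members carry an asterisk, and ldlra and ggps1 are left out as before. The 1 filled point is acat2 in the controls, at 1.14.

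Over the list the median stage difference was 0.08 in the controls and -0.25 in csf1rDM, beside 0.05 and 0.04 over all genes. With ldlra left out in the controls and set to its bound in csf1rDM these medians were the same. Of the 11 other enzymes 0 passed in csf1rDM, beside 8.24% of all genes, and 4 had an unadjusted p below 0.05, beside at least 27.6%. In the controls 1 rose and 0 fell, where 6.29% of all genes passed. The 1 was acat2, which went from 7.84, 6.70 and 5.34 CPM to 12.6, 16.9 and 14.2 CPM in the controls (log2 difference 1.14 ± 0.26, adjusted p = 0.0064), while csf1rDM had 7.41, 8.58 and 7.70 CPM at 28 hpf and 8.20, 3.94 and 6.82 CPM at 50 hpf. Leaving out any 1 control library of either stage, or replicate 1 or 3 of csf1rDM at 28 hpf, took the adjusted p to 0.0111 to 0.0396, with log2 differences from 0.98 to 1.24.

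The third question was whether the genotype effect differed between the stages, tested as the interaction of genotype and stage. Of the 9 members 0 passed and 0 had an adjusted p below 0.05, where 0.158% and 0.919% of all genes did. At an unadjusted p below 0.05 there was 1 member, lss. The share of all genes at that limit was not computed, and 0.919% is only a lower bound, so no excess can be read from this count. DESeq2 also passed 0. The largest interactions among members counted in every group were those of cyp51, -2.36 (95% interval -5.14 to 0.42, adjusted p = 0.48), and lss, -2.03 (-3.84 to -0.21, adjusted p = 0.33). A difference of cyp51 between 28 and 50 hpf in its response to genotype was therefore not shown.

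Of the sensors and regulators, 15 IDs were tested. For genotype 1 passed at 28 hpf and 0 at 50 hpf, where 4.08% and 5.33% of all genes did. With an adjusted p below 0.05 there were 4 at 28 hpf, all higher in csf1rDM, and 2 at 50 hpf, both lower. Over all genes 20.5% and 19.9% did so. Only insig1, the protein that in mammals retains the SREBP escort and is itself an SREBP target, passed the interaction, where 0.158% of all genes did. It stood at 66.3, 69.7 and 78.2 CPM in the controls at 28 hpf and at 95, 82.3 and 87.6 CPM in csf1rDM, all higher. At 50 hpf it stood at 80.01, 85.3 and 84.1 CPM in the controls and at 40.5, 51.3 and 41.6 CPM in csf1rDM, all lower. The genotype difference turned from 0.30 ± 0.11 (adjusted p = 0.070) to -0.90 ± 0.11 (adjusted p = 0.00013), an interaction of -1.21 ± 0.16 (adjusted p = 0.0038). It was lost at the threshold of 0.01 without any 1 library of 28 hpf, any 1 control of 50 hpf or replicate 1 of csf1rDM at 50 hpf, with adjusted p-values from 0.0106 to 0.0339 and log2 values from -1.29 to -1.08.

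The transcription factor srebf2 stood at 89.6, 82.3 and 80.7 CPM in the controls at 50 hpf and between 53.8 and 66.7 CPM in the other 9 libraries. It was 0.47 ± 0.10 lower in csf1rDM at 50 hpf on the log2 scale (adjusted p = 0.0041) and 0.50 ± 0.10 higher at 50 hpf in the controls (adjusted p = 0.0020), both under the fold limit, and its difference at 28 hpf was -0.04 (95% interval -0.25 to 0.17). The related srebf1, which leans towards fatty acid genes, and the escort scap had adjusted p-values from 0.065 to 0.95 in all comparisons. The ubiquitin ligase rnf145a rose in csf1rDM at 28 hpf, from 4.91, 7.12 and 6.02 CPM to 8.99, 18.7 and 12.6 CPM (1.16 ± 0.26, adjusted p = 0.0076). Leaving out any 1 library other than replicate 1 of csf1rDM of either stage took it to adjusted p-values from 0.0106 to 0.0432 and log2 values from 0.84 to 1.3. It was also lost with no filter on low counts (0.0104) and in a fit of only the groups compared (0.0178), so the call held in 6 of 19 alternatives. The related rnf145b held far more reads, and its groups overlapped at 28 hpf, with means of 294 CPM in the controls and 293 CPM in csf1rDM. One of the 2 IDs of mylip, the ligase that in mammals sends the LDL receptor to degradation (ENSDARG00000055118), rose in the controls from 1.35, 1.80 and 1.92 CPM to 9.06, 9.95 and 9.08 CPM (2.46 ± 0.42, adjusted p = 0.00087). The other ID (ENSDARG00000008859) also rose there, from a mean of 1.08 to 3.35 CPM, with an adjusted p below 0.05, but did not pass. At 28 hpf both IDs had higher means in csf1rDM, at 4.07 against 1.69 CPM and 3.11 against 1.08 CPM. These differences had adjusted p-values below 0.05, and neither passed.

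Of the genes of sterol uptake, transport and storage, 16 IDs were tested. For genotype 0 passed at 28 or at 50 hpf, where 4.08% and 5.33% of all genes did. With an adjusted p below 0.05 there were 5 at each stage, beside 20.5% and 19.9% of all genes. At 28 hpf 2 of these were higher and 3 lower in csf1rDM, and at 50 hpf 3 were higher and 2 lower. At an unadjusted p below 0.05 there were 8 and 6, beside at least 20.5% and 19.9% of all genes. The DESeq2 test passed lrp1 at 28 hpf (log2 difference -1.34, adjusted p = 0.0038) and stard4 at 50 hpf (-1.93, adjusted p = 0.0015). Averaged over both stages the sterol carrier stard4, an SREBP target in mammals, fell by 1.71 ± 0.36 on the log2 scale (adjusted p = 0.0030). It had 13.0, 14.6, 10.2, 10.9, 12.5 and 14.8 CPM in the 6 controls and 5.95, 2.90, 4.99, 0.705, 6.43 and 2.59 CPM in the 6 csf1rDM libraries, with no overlap, and held its call in 17 of 17 alternatives. Between the stages 3 rose in csf1rDM and 1 in the controls, where 8.24% and 6.29% of all genes passed in either direction. One of 2 npc2 IDs (ENSDARG00000096979), for a lysosomal sterol carrier, rose in both, from at most 0.372 CPM to 4.67 to 6.83 CPM. The other npc2 ID (ENSDARG00000090912) held far more reads. Its means were 437 CPM (controls) and 337 CPM (csf1rDM) at 28 hpf, and 810 and 622 CPM at 50 hpf. It was lower in csf1rDM at both stages and higher at 50 hpf in both genotypes. Each of these differences had an adjusted p below 0.05, and none passed. The endocytic receptor lrp1 (ENSDARG00000029146) and the lipoprotein receptor scarb1 rose in csf1rDM, from 1.57 to 5.06 CPM to 15.0 to 33.5 CPM and from 1.09 to 4.14 CPM to 7.88 to 20.7 CPM. In a fit of only the groups compared scarb1 lost this call (adjusted p = 0.019). Their control differences of 0.92 and 1.34 did not pass, although that of scarb1 did with the DESeq2 test (0.0072), with no filter (0.009998) and in a fit of only the groups compared (0.00051). The interactions had adjusted p-values of 0.11 and 0.60, and that of lrp1 was 0.0091 with the DESeq2 test.

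Of the fatty acid genes, which share the SREBP proteins with this pathway, 11 IDs were tested. For genotype 0 passed at 28 or at 50 hpf, where 4.08% and 5.33% of all genes did. With an adjusted p below 0.05 there were 4 at each stage, beside 20.5% and 19.9% of all genes. At 28 hpf 3 of these were higher and 1 lower in csf1rDM, and at 50 hpf 2 were higher and 2 lower. At an unadjusted p below 0.05 there were 5 at each, beside at least 20.5% (28 hpf) and 19.9% (50 hpf) of all genes. The DESeq2 test passed elovl6 at 50 hpf (log2 difference -3.08, adjusted p = 0.00065). The elongase elovl6 fell in the average of both stages, by 2.42 ± 0.59 on the log2 scale (adjusted p = 0.0070), with 2.36 to 5.65 CPM in the 6 controls and 0 to 1.58 CPM in the 6 csf1rDM libraries. This was lost on leaving out any 1 library other than replicates 1 and 3 of csf1rDM at 28 hpf and replicate 2 at 50 hpf (adjusted p from 0.0122 to 0.0209, log2 values from -2.64 to -2.27). Between the stages the malic enzyme me1 rose (log2 differences of 1.12 in the controls and 1.08 in csf1rDM) and the citrate carrier slc25a1a fell in both genotypes (-2.55 and -2.19), the latter with an adjusted p of 0.0148 in a fit of only the groups compared.

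Across the 12 libraries no common course of the members was seen. Pearson correlations of log2 CPM between the 36 pairs ran from -0.82 (idi1 with dhcr7) to 0.72 (cyp51 with dhcr7), as a description of libraries that share depth and composition. Counting noise in the 6 thinly counted members pulls such values towards 0, so low values among them cannot show that a common course is absent. Among the well-counted hmgcs1, idi1 and fdps the values ran from -0.28 to 0.45. The genes whose level was most like the mean standardised profile of the 9 members, among 7200 with a unique symbol and at least 10 CPM, included psmd5 (r = 0.93), clns1a (0.91), prorp (0.90) and cfap20 (0.89). After removal of the group means they were rnaseh2a (0.99), zgc:113452 (0.97), haus7 (0.96), acss2 (0.96) and ugt2a4 (0.93). Of these, acss2, which makes acetyl-CoA from acetate, is in the list of fatty acid genes. Both rankings took the highest of 7200 values over 12 libraries. High r values come with such a selection, and no reference for them was computed.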

How the data were processed

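RNA from GFP-positive sorted cells was amplified and sequenced as paired reads by the authors. Per the labels and methods, reads were aligned with STAR (2.5.4b in the submitters' processing notes) to GRCz10, and the values deposited are unnormalised read counts for Ensembl gene IDs (HTSeq 0.11.0 is named). The annotation version and the strand setting are not given in the sources used here, so antisense and overlapping genes could share reads. Symbols were taken from a table that pairs IDs with names, for 27000 of 35117 IDs, without regard to case and through older names.

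The counts were analysed in R 4.3.3 with edgeR 4.0.16. Genes with low counts were removed with filterByExpr by group, libraries were scaled by TMM, and 1 quasi-likelihood fit held all 12 libraries with a mean per group. The contrasts read from it were genotype at each stage, stage in each genotype, their interaction and the mean genotype effect. P-values were adjusted over all 16429 genes. The code was tested on simulated data. Changes were planted there only in better counted genes, with the same spread for all, so the thinly counted members were not covered. Intervals are 95% from the same fit. CPM are TMM-scaled, and correlations used log2 CPM with a prior count of 2. A count of 0 was taken to allow up to 3 counts. Counts are reads and not molecules, so limits and intervals from counts cover counting error only. The labels do not say that replicates came from separate crosses or days, so p-values measure only the spread between these pools.

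All members and all other synthesis enzymes are named, except for a few genes, 1 member among them, that are not reported here and stay out of the lists' counts and medians. Of the regulators, the uptake and storage genes and the fatty acid genes, those that passed in any contrast are named, with srebf1, srebf2, scap and insig1. Also named are the second npc2 ID, the second mylip ID, rnf145b and the genes (at most 5) most like the members by each of the 2 measures. Members and lists were chosen with earlier results of these data known. Alternatives were the size factors of DESeq2 1.42.0, upper-quartile scaling, the DESeq2 test, no filter, at least 10 counts in every library, a replicate block, only the groups compared, an adjusted p below 0.05 with no fold limit, and each library left out. No sequences or coordinates are given, since no genome of this build was used here.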

Additional observations from a re-analysis of the deposited data

Results flagged for a closer look

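The regulator insig1 differed between the stages in its response to genotype. Its log2 difference between csf1rDM and control was 0.30 at 28 hpf and -0.90 at 50 hpf, a change of -1.21 (interaction term, edgeR, adjusted p = 0.0038), with all 3 csf1rDM libraries higher at 28 hpf and all 3 lower at 50 hpf. The value was between -1.29 and -1.08 in the 18 alternatives, where the adjusted p was at most 0.0339. Of the named sterol and fatty acid genes it was the only one whose interaction had an adjusted p below 0.05 in the fit of all 12 libraries by edgeR. Groups of 3 libraries are too small for a test of single stray libraries, so none was made.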

How the results depend on the processing

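The count of members past the thresholds for genotype at 50 hpf, 1 in the fit described, was 0 with DESeq2 size factors, with upper-quartile scaling and with at least 10 counts in every library (4 members tested), 2 at an adjusted p below 0.05 with no fold limit, and 0 to 1 on leaving out single libraries. At 28 hpf the count of 0 became 1 with no fold limit and ranged from 0 to 1 on leaving out single libraries. For stage in the controls it was 1 in the fit of only the groups compared. For stage in csf1rDM it was 3 with no fold limit, 1 with the DESeq2 test, 1 with no filter, and 0 to 1 on leaving out single libraries. For the mean genotype effect the count of 1 became 3 with no fold limit, 0 with at least 10 counts in every library (cyp51 is then not tested), and 0 to 1 on leaving out single libraries. The interaction stayed at 0 in every setting. The medians over the members moved by less than the spread between replicates in all of them. The other scalings moved the median of all genes by at most 0.0574 on the log2 scale. Of 6817 values of single sterol and fatty acid genes under the alternatives, 6698 kept their side of the thresholds, and 283 changed sign, none with an adjusted p below 0.05 in either fit. Over all genes, same-numbered libraries deviated together weakly or not at all (correlations from -0.357 to 0.168, 3 of 12 above 0.1). At 28 hpf, however, replicate 1 had the highest keratinocyte sum of its group in both genotypes (308 CPM in the controls, 469 CPM in csf1rDM). The same held for the erythroid sum (43.8 and 25.7 CPM). The endothelial sum was highest in replicate 3 of both. For the macrophage, neutrophil, muscle, neural, yolk and liver, and pigment sums the highest replicate number differed between the genotypes. Whether same-numbered libraries shared a preparation was not tested. With a replicate block the members past the thresholds were 0 at 28 hpf, 1 at 50 hpf (cyp51, log2 difference -4.42, adjusted p = 0.0061), and 0, 0, 0 and 1 in the other contrasts. Of the other genes, the block took adjusted p-values over 0.01 for rnf145a at 28 hpf (0.0121), acat2 at 50 hpf (0.0127) and between the stages in the controls (0.0132), and the interaction of insig1 (0.0127), and took pmvk at 50 hpf below it (0.0089). It changed no other call. Causes of these changes were not tested. Depth limits the members from squalene onwards and ldlra, where single libraries of csf1rDM held 0 to 52 counts.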
